A study of Arabidopsis thaliana with 4 samples.

Results

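Among nuclear genes measured in Arabidopsis shoots, 140 probe sets had at least 3-fold lower signal in plants overexpressing the transcription factor bHLH122 than in wild type, out of 22746 probe sets other than controls. A probe set is the group of short DNA probes that reads 1 transcript on the array. They were chosen by the rule that the mean log2 signal of the overexpressor arrays lay at least 3-fold below that of the wild-type arrays and that both overexpressor arrays lay below both wild-type arrays. Organelle genes were left out, as were 7 named probe sets that met the same limits (ORA47, STZ, WRKY53, CML38, AT3G01830, AT4G27280 and THI2.1). Because this contrast chose the genes, their differences are given as a description without a test.

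All plants were Arabidopsis thaliana of accession Col-0, and the tissue was the shoot above the soil after 3 weeks of growth, first on MS medium and then in soil, following stratification for 96 h. The first group had 2 arrays from plants overexpressing bHLH122, and the second had 2 arrays from wild-type Col-0 with no treatment. The promoter that drives the bHLH122 transgene is not given in the sources used here. The source labels call the overexpressor arrays independent lines while both titles carry the same line number, and separate cultures are not stated for either group. The p-values therefore rest on the spread between arrays, and that spread may be technical.

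The arrays of a group were alike (r = 0.997 for the overexpressor pair and 0.996 for the wild-type pair; these correlations are across probe sets, which are not independent replicates), against 0.980 to 0.981 between groups. The green-tissue markers RCA (Rubisco activase) and PRK (phosphoribulokinase) had log2 signals of 13.6 to 13.99 and 12.1 to 12.97 on the 4 arrays, and both were higher in the overexpressors in limma (log2 differences 0.34 and 0.69). RCA was not called once any 1 array was dropped. On all 4 arrays its call was also lost after quantile normalization and with median centring. The same held with the gene length trend removed and with equal replicate numbers fitted as pairs. With 1 array dropped, the spread is estimated from the group that still has 2 arrays and taken to hold for both. Control RNA added to the samples also read lower in the overexpressors: the 24 poly-A control probe sets had a median log2 difference of -0.59 and the 18 hybridization control probe sets -0.25, with no control lower by more than 0.86 on the log2 scale. Its part in the falls below was not tested.

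bHLH122 belongs to the basic helix-loop-helix family, whose members bind short E-box sequences in promoters. Plants hold a large set of small, little-studied genes whose transcripts rise within minutes of touch, wounding or contact with microbes. Plants recognise microbes with receptors at the cell surface and inside the cell. TIR domains are the signalling part of many intracellular receptors, and VQ proteins bind WRKY transcription factors. Lipid-transfer-type proteins are small secreted proteins with a conserved set of cysteines, and several of them are made in the tapetum, the cell layer of the anther that feeds developing pollen.

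Of the 140 probe sets, 67 have 1 named gene, 4 are shared by several genes and 69 are not named in the platform annotation. An unnamed probe set could not be checked against the exclusions or for an organelle gene. Nor could it be given a role, so the role groups below describe only the named probe sets. Over all 22746 probe sets 8730 are not named. Of 172 listed stress, defence, marker and reference genes, only 22 have a named probe set. The make-up of the named part therefore need not be that of the 140. The share of all probe sets that were at least 3-fold lower with the groups apart was 0.646%, and 0.198% were at least 3-fold higher. Since the rule used this contrast, nothing is read from these shares. The median log2 difference was -2.04, a 4.12-fold fall, against -0.02 for all probe sets. In 77 probe sets the fall was at least 4-fold, in 14 at least 8-fold and in 6 at least 16-fold. The median was -2.02 for the probe sets with 1 gene and -2.12 for those without a name. The rule cut both sets at the same limit, so nothing is read from how close these medians are. The deepest fall of all, 23.4-fold, was in an unnamed probe set. That probe set read 4.19 and 4.10 (log2 signal) in the overexpressors and 8.67 and 8.71 in wild type.

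**Figure D1:**
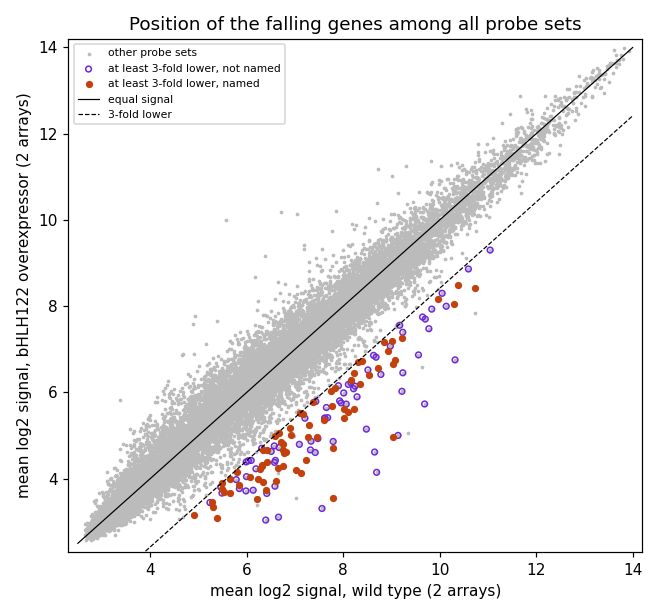
Mean log2 signal of every probe set in wild type (horizontal axis, 2 arrays) and in the bHLH122 overexpressor (vertical axis, 2 arrays); filled points are the named and open points the unnamed probe sets at least 3-fold lower. Those chosen lie on or below the dashed 3-fold line, with wild-type means from 4.92 to 11.05.

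Wild-type means ran from 4.92 to 11.05 (log2 signal), and 136 of the 140 were above the wild-type median of all probe sets. A 3-fold fall needs room above the lowest signals, which were 2.51 to 2.57 on the 4 arrays. The rule thus favours high wild-type signal, and nothing is read from the 136. In the overexpressors 64 of the 140 were still above the median of that group, and 7 lay below the lower quartile (3.46 and 3.54) on both arrays. No detection calls were used, so the falls of those 7, among them AT3G10930, AT1G35210 and AT3G02840, may be understated. The plants were measured as bulk tissue, in which fewer cells of a type and less RNA per cell cannot be told apart.

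Replicate arrays were close. The median gap between the arrays of a group was 0.12 log2 units in the overexpressors and 0.14 in wild type for the 140, against 0.11 and 0.12 for all probe sets. Gaps of 0.5 or more occurred in 11 probe sets in the overexpressors and in 10 in wild type. In 113 of the 140 even the closest pair of an overexpressor and a wild-type array was at least 3-fold apart.

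The deepest named fall was in AT4G27654, a short gene with no role stated here. Its log2 signal was 3.62 and 3.48 in the overexpressors and 7.60 and 7.95 in wild type, an 18.8-fold fall (log2 difference -4.23). The overexpressor values lay near the lower quartile of their arrays, whereas both wild-type arrays were above their upper quartiles. AT4G29780 followed with 4.95 and 4.99 against 8.90 and 9.15 (-4.06). AT1G05575 read 4.73 and 4.68 against 7.57 and 8.001, a log2 difference of -3.08. Both genes are without a stated role.

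For AT1G15010 the overexpressor arrays read 4.17 and 4.08 and the wild-type arrays 6.78 and 7.47 (-3.004). AT1G02813 stood at 3.66 and 3.40 against 6.06 and 6.34 (-2.68). The wild-type arrays were lower in 1 replicate for AT1G15010, but still over 2 log2 units above either overexpressor array. AT2G39650 gave 4.94 and 5.01 in the overexpressors and 7.44 and 7.47 in wild type (-2.48). In all, 29 of the 67 genes have no role stated here, with log2 differences from -4.23 to -1.588. A further probe set with no stated role is shared by AT1G53903 and AT1G53885.

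**Figure D2:**
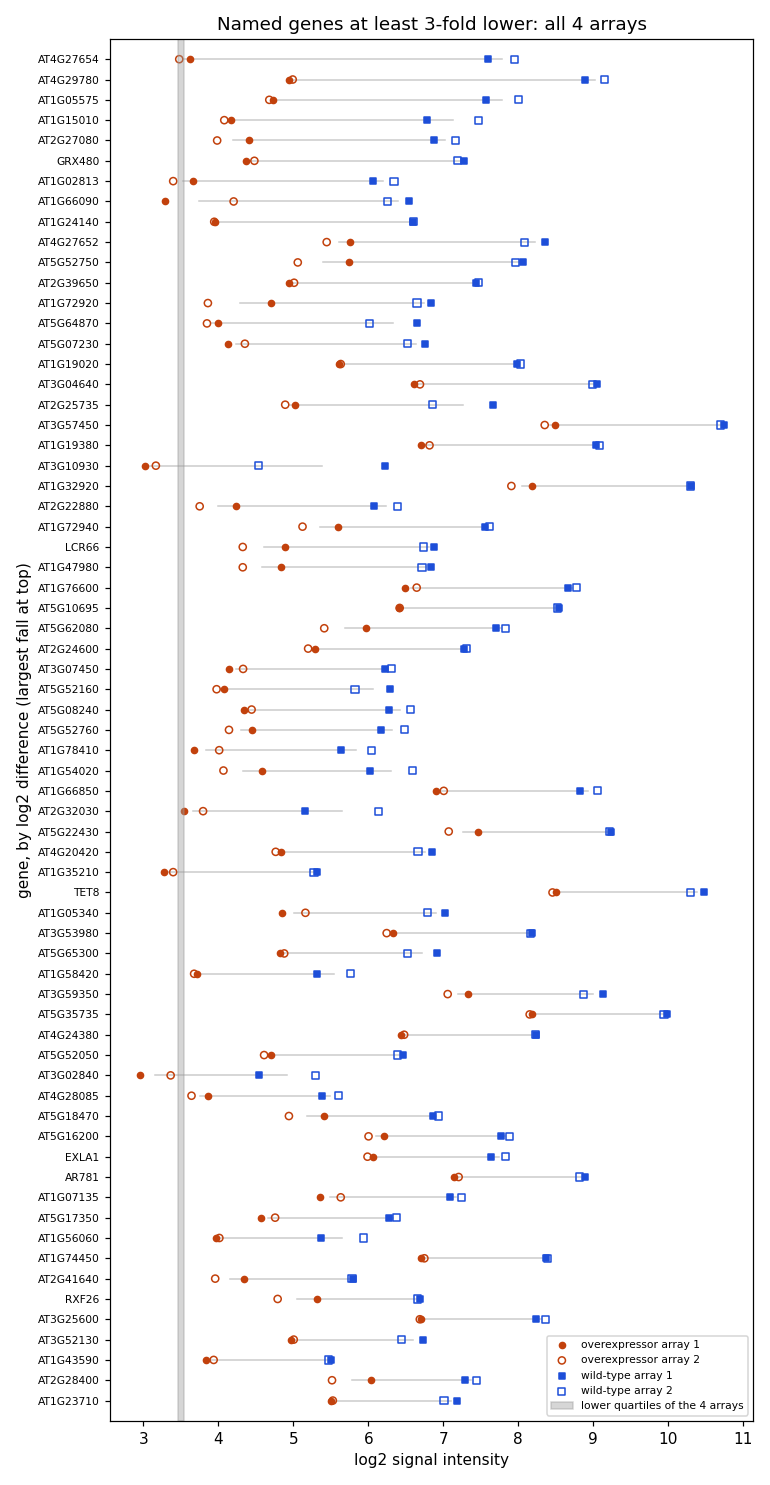
Log2 signal of the 67 named genes on each of the 4 arrays (circles, overexpressor; squares, wild type; filled for array 1 and open for array 2), ordered by log2 difference from AT4G27654 (-4.23) to AT1G23710 (-1.588). The grey line joins the group means and the grey band spans the lower quartiles of the 4 arrays; in every row both circles lie left of both squares.

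Genes for 3 TIR domain proteins were among the falls, AT1G66090, AT1G72920 and AT1G72940. AT1G66090, of the class with a TIR and a nucleotide-binding domain, read 3.29 and 4.20 in the overexpressors and 6.55 and 6.26 in wild type (-2.66). The overexpressor arrays were 0.91 apart, the widest gap in that group among the named genes, yet both were over 2 log2 units below wild type. AT1G72920 read 4.71 and 3.86 against 6.84 and 6.65 (-2.46), and AT1G72940 read 5.601 and 5.12 against 7.56 and 7.62 (-2.23).

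Relatives of these genes were taken from a list of 16 TIR and TIR-NBS genes drawn up once the genes above were known, of which 14 were measured. Of the 11 that were not already at least 3-fold lower, 4 fell, none rose and 7 did not pass in limma, with a median log2 difference of -0.15. Over all probe sets 11.8% passed as lower. Several of the 7 read near the lower quartile of the arrays in wild type, where a fall could hardly be seen. AT2G32140 fell the most, with a log2 difference of -1.43 (SE 0.10, limma adjusted p = 0.000633), AT1G72900 had -1.23 (SE 0.10, limma adjusted p = 0.00133) and AT1G57630 had -1.02 (SE 0.10, limma adjusted p = 0.00173). AT3G04210 fell by 0.47, a call lost without overexpressor replicate 2 (-0.38), wild-type replicate 1 (-0.48) or wild-type replicate 2 (-0.45).

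Most of the list lies in 1 run of genes on chromosome 1, from AT1G72840 to AT1G72950 in the TAIR10.1 order. The measured genes from AT1G72900 to AT1G72940 fell: AT1G72900, AT1G72920 and AT1G72940. AT1G72840, AT1G72850, AT1G72860 and AT1G72870 had log2 differences between -0.15 and 0.22 and did not pass, and AT1G72890 read 7.36 and 7.62 in the overexpressors against 7.12 and 7.02 in wild type (0.42, limma adjusted p = 0.0538). AT1G72890 passed as higher without overexpressor replicate 1 (0.56), after quantile normalization (0.46), without the lowest quartile of mean signal and with an intensity trend in the fit. AT1G72950, at the far end, had -0.15 and did not pass. In wild type, AT1G72950 and the genes from AT1G72840 to AT1G72870 read 3.14 to 3.78 (log2 signal). The lower quartiles of the wild-type arrays were 3.53 and 3.50, so a fall in these genes could hardly be seen. AT1G72880, AT1G72910 and AT1G72930 have no named probe set and are not analysed here. Near-identical neighbours can share signal on short probes, so the values within the run are not fully separate.

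**Figure D3:**
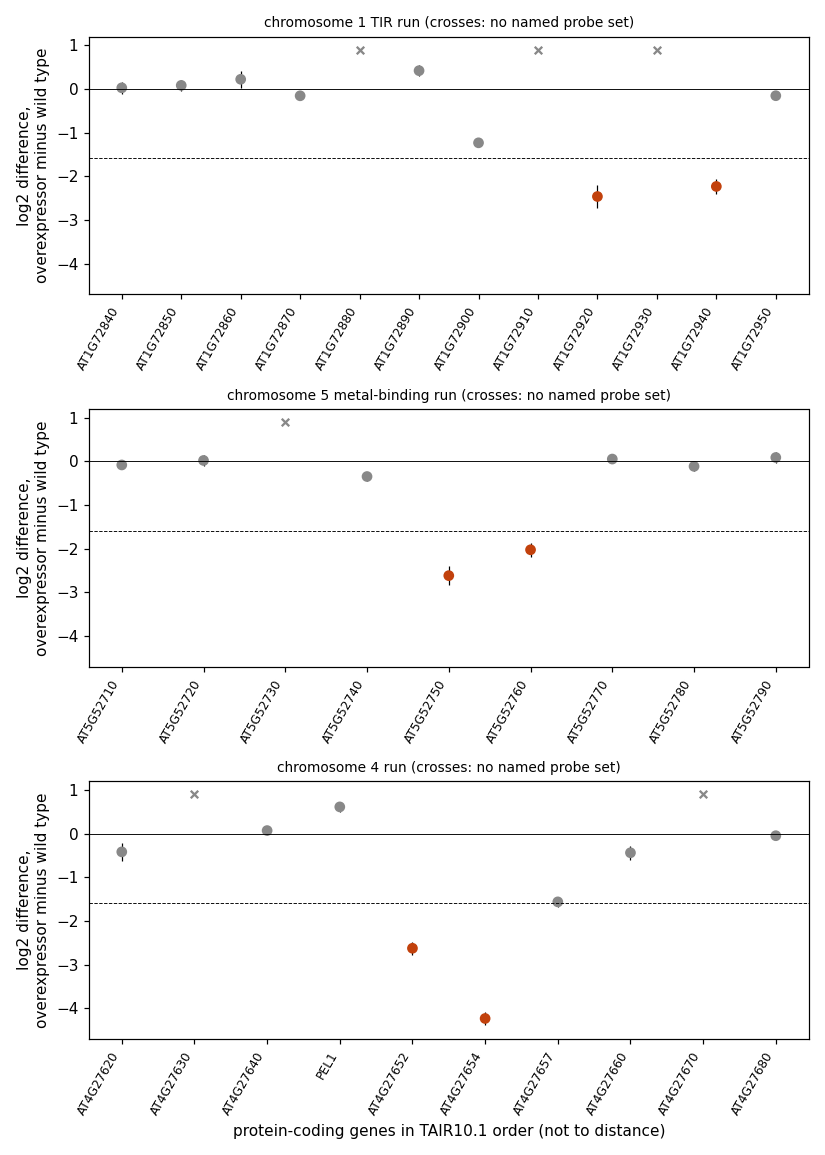
Log2 difference (overexpressor minus wild type, 2 arrays each) of protein-coding genes in TAIR10.1 order in 3 runs, with bars for the limma standard error; orange points are at least 3-fold lower, the dashed line marks 3-fold, and crosses mark genes without a named probe set. Falls of more than 3-fold stand next to genes near 0, as at AT5G52760 (-2.02) beside AT5G52770 (0.05). AT5G52770 read 2.99 to 3.11 (log2 signal), below the lower quartile of every array, so a fall there could hardly be seen.

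In the protein-coding gene order of TAIR10.1, which holds 66 of the 67 named genes, adjacent genes were both at least 3-fold lower in 3 pairs: AT1G58420 with RXF26 (AT1G58430), AT4G27652 with AT4G27654, and AT5G52750 with AT5G52760. Of the 131 different neighbours 60 were not measured, so further pairs may have been missed.

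AT4G27652 read 5.76 and 5.45 in the overexpressors against 8.36 and 8.09 in wild type (-2.62). The gene after AT4G27654, AT4G27657, fell too and missed the 3-fold limit, with 6.04 and 5.79 against 7.48 and 7.47 (-1.56, limma adjusted p = 0.000869). PEL1, the gene before this trio, was higher by 0.61 (limma adjusted p = 0.0117), a call lost without wild-type replicate 1 (0.51) and with the gene length trend removed (0.28).

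Of the measured neighbours that were not themselves at least 3-fold lower, 13 of 65 fell, 7 rose and 45 did not pass in limma, with a median log2 difference of -0.07. For comparison, 11.5% of 13264 nuclear genes fell and 10.01% rose, with a median of -0.03. AT1G74440, beside AT1G74450, fell by 1.33, whereas AT4G28080, beside AT4G28085, rose by 1.52 (limma adjusted p = 0.000491): it read 10.06 and 10.02 in the overexpressors and 8.54 and 8.51 in wild type. AT4G28085 itself read 3.87 and 3.64 against 5.38 and 5.601 (-1.74), so the neighbours moved opposite ways. In the annotation 10 of the 67 genes overlap a protein-coding neighbour, and for these the source of a signal is less certain.

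AT5G52750 and AT5G52760 encode proteins with a heavy-metal-associated domain. AT5G52750 read 5.74 and 5.06 in the overexpressors and 8.07 and 7.96 in wild type (-2.62). AT5G52760 read 4.45 and 4.14 against 6.17 and 6.48 (-2.02). On either side AT5G52770 had 0.05 and AT5G52740 -0.35. AT5G52740 passed in limma (adjusted p = 0.0473) and was not called once any 1 array was dropped. AT5G52770 read below the lower quartile of every array, where a fall could hardly be seen.

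GRX480 encodes a glutaredoxin of the plant-specific CC type that binds TGA transcription factors. Its log2 signal was 4.36 and 4.48 in the overexpressors and 7.27 and 7.19 in wild type, a 7.01-fold fall (-2.81). The other 4 glutaredoxin genes found by symbol, GRXC1, GRXC2, ROXY1 and ROXY2, ran from -0.04 to 0.22 and did not pass in limma. A probe set shared by AT5G38000 and AT5G37940, which encode zinc-binding dehydrogenases, read 5.58 and 5.53 against 8.05 and 8.14 (-2.54).

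Both named VQ genes, AT2G22880 and AT1G78410, were low on the overexpressor arrays. AT2G22880 read 4.24 and 3.75 against 6.08 and 6.39 (-2.24). For AT1G78410 the values were 3.67 and 4.01 against 5.64 and 6.04 (-1.999). Among 11 other measured genes of a 30-gene VQ list, also drawn up once the falls were known, 2 fell, none rose and 9 did not pass (median log2 difference -0.08), against 11.8% lower over all probe sets. Several of the 9, such as AT3G18360 and AT5G65170, read near the lower quartile in wild type, where a fall could hardly be seen. AT3G56880 missed the 3-fold limit narrowly, with 8.36 and 8.41 against 9.96 and 9.96 (-1.57, SE 0.09, limma adjusted p = 0.000436). AT4G15120 (-0.36) was not called once any 1 array was dropped.

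Small proteins of the cell surface with a cysteine-rich membrane segment (CYSTM) gave 3 probe sets. AT1G05340 read 4.85 and 5.16 in the overexpressors and 7.03 and 6.79 in wild type (-1.90). AT1G56060 read 3.97 and 4.01 against 5.37 and 5.93 (-1.66), and the probe set shared by AT2G32210 and AT2G32190 read 3.52 and 3.37 against 5.22 and 5.33 (-1.83). Of the 3, AT1G56060 had the widest gap between wild-type arrays.

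Other membrane proteins spanned log2 differences of -2.83 to -1.77. AT2G27080, of the NDR1/HIN1-like family at the plasma membrane, read 4.41 and 3.98 against 6.88 and 7.17 (-2.83). AT5G64870, a flotillin of membrane microdomains, read 3.99 and 3.85 against 6.65 and 6.02 (-2.42). The tetraspanin TET8, found on extracellular vesicles, read 8.50 and 8.46 against 10.47 and 10.30 (-1.90). Of these, AT5G64870 had the widest gap between wild-type arrays, 0.63.

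Across the 14 other measured tetraspanin genes, 2 fell and none rose in limma, with a median of -0.07, and 11.8% of all probe sets fell. Several of the 14, such as TET4 and TET12, read near or below the lower quartile in wild type, where a fall could hardly be seen. TET6 fell by 0.73 (limma adjusted p = 0.00539), and TET3 (-0.38) was not called once any 1 array was dropped. AT5G52050, a MATE transporter known to export abscisic acid from cells, read 4.70 and 4.61 in the overexpressors and 6.47 and 6.39 in wild type (-1.77). AT5G35735, a membrane protein of the DOMON and cytochrome b561 type, completed this group with -1.795.

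**Figure D4:**
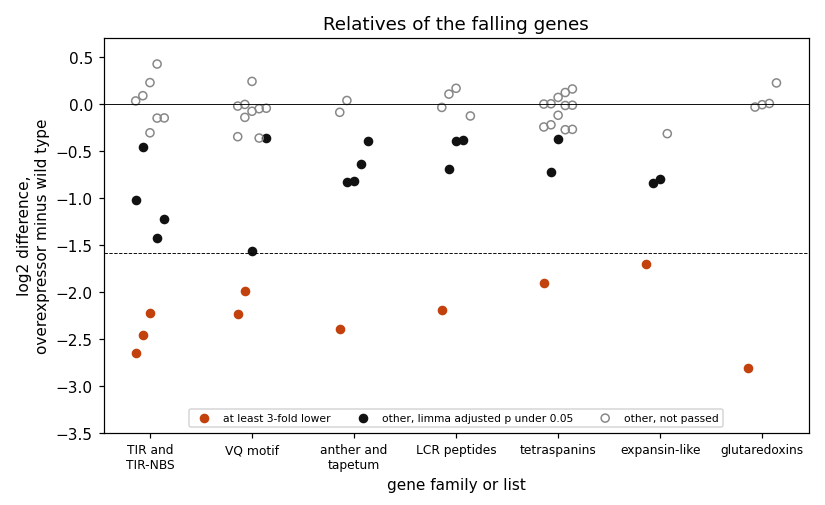
Log2 difference (overexpressor minus wild type) of each measured gene in 7 families or lists, with orange for genes at least 3-fold lower, black for other genes past the limma threshold and open circles for genes that did not pass. The 4 other glutaredoxin genes found by symbol lie near 0, while 4 further TIR genes are black.

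Among the named genes, those for the cell wall and the extracellular space formed the largest group with a stated role, 11 genes from -2.65 to -1.62. AT1G24140, an extracellular matrix metalloproteinase, read 3.96 and 3.94 against 6.59 and 6.61 (-2.65). AT3G04640, a glycine-rich protein, read 6.61 and 6.69 against 9.06 and 8.99 (-2.37). Replicates lay within 0.1 of each other in both genes.

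AT3G10930, which encodes a small signal peptide of the IDA-like type, was the least even of the 67: 3.02 and 3.17 in the overexpressors against 6.22 and 4.54 in wild type (-2.28). Without wild-type replicate 1 its difference was -1.44, and without wild-type replicate 2 it was -3.12. LCR66, a gene of the defensin family, read 4.89 and 4.33 against 6.87 and 6.74 (-2.20). Of 7 other measured LCR genes, 3 fell and none rose, against 11.8% lower and 12.2% higher over all probe sets. The LCR genes that did not pass read below the lower quartile on all 4 arrays. LCR69 fell by 0.70 (limma adjusted p = 0.0131; not past the threshold without wild-type replicate 2, -0.57, or with the length trend removed, -0.46), and LCR67 (-0.39) and LCR68 (-0.39) were not called once any 1 array was dropped.

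EXLA1 encodes an expansin-like protein, of a family named after the expansins that loosen cell walls. It read 6.07 and 5.99 in the overexpressors and 7.64 and 7.83 in wild type (-1.71). Of 3 measured relatives, EXLA3 (-0.85, limma adjusted p = 0.00522) and EXLA2 (-0.81, limma adjusted p = 0.0145) fell, against 11.8% of all probe sets, and EXLB1 (-0.32) did not pass. EXLA2 lost its call without wild-type replicate 1 (-0.73) and with the length trend removed (-0.49). The remaining genes of the group, AT5G22430, AT1G54020, AT5G18470, AT1G07135, AT2G41640 and RXF26, had log2 differences from -1.98 to -1.62. AT5G18470 encodes a lectin-type protein, AT2G41640 a glycosyltransferase, and RXF26 and AT1G54020 GDSL-type lipases.

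The 5 signalling probe sets ran from -2.08 to -1.61. The deepest was shared by AT2G30020, a protein phosphatase 2C that acts on stress-activated MAP kinases, and by AT4G08260 and AT3G27140, at 4.72 and 4.63 against 6.75 and 6.75. AT2G24600, an ankyrin-repeat protein, read 5.29 and 5.20 against 7.27 and 7.31 (-2.05). The protein kinase gene AT3G59350 had -1.81, AT3G02840, with armadillo repeats, -1.76, and AT3G25600, a calmodulin-like calcium sensor, -1.61.

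A group of 8 genes held 7 of the lipid-transfer type and AT4G20420, annotated as tapetum-specific. AT5G07230, expressed in the tapetum, read 4.13 and 4.35 in the overexpressors against 6.76 and 6.52 in wild type (-2.40). AT5G62080 read 5.97 and 5.41 against 7.71 and 7.83 (-2.08), and AT1G66850 read 6.91 and 7.01 against 8.82 and 9.06 (-1.98). For AT4G20420 the values were 4.83 and 4.76 against 6.85 and 6.66 (-1.96). AT3G07450, AT5G52160, AT3G53980 and AT3G52130 had log2 differences of -2.03, -2.03, -1.88 and -1.61.

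A list of 26 anther and tapetum genes was drawn up once these falls were known, and 7 of its genes were measured, AT5G07230 among them. Of the other 6, 4 fell and 2 did not pass in limma, against 11.8% lower over all probe sets, and 3 of those 4 calls depended on single arrays. In 5 of the 6 both overexpressor arrays lay below both wild-type arrays, against 32.1% of all probe sets. The 5 include AMS, which did not pass and had a log2 difference of only -0.09. The summed linear signal of the 6 was 80.3 and 81.5 in the overexpressors and 110.4 and 126.6 in wild type. ATA27, an anther gene, fell by 0.84 (SE 0.14, limma adjusted p = 0.0102), reading 4.47 and 4.38 against 5.07 and 5.45.

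SHT, an enzyme of pollen-coat spermidine conjugates, fell by 0.82 (limma adjusted p = 0.0214), with 0.0511 as the adjusted p without overexpressor replicate 2. SWEET8, a sugar transporter of the tapetum, fell by 0.64 (limma adjusted p = 0.0232); it did not pass without overexpressor replicate 1 (-0.45), wild-type replicate 1 (-0.59) or wild-type replicate 2 (-0.69). AT1G33430 (-0.40) was not called once any 1 array was dropped. AMS, a transcription factor of the tapetum, read 3.36 and 3.35 against 3.43 and 3.47, below the lower quartile on all 4 arrays, and AT1G75920 had 0.03. No flower identity gene of a list of 9 has a named probe set. The part of flower tissue in these falls was not tested.

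The 67 named genes were short. Their median length in TAIR10.1, introns included, was 1111 bp, against 2118 bp for 13415 nuclear probe sets whose gene length is known. Up to 1000 bp long were 27 of 67 (40.3%), compared with 13.1% of all. The 8 lipid-transfer-type and tapetum genes had a median of 658.5 bp. The 21 named nuclear genes at least 3-fold higher had a median of 4027 bp, and none was shorter than 2093 bp.

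The median log2 difference of all 1754 nuclear probe sets up to 1000 bp was -0.09. It was -0.10 for the 4360 above 1000 and up to 2000 bp, and 0.04 for the 7301 above 2000 bp. With the length trend removed from each array, all 67 remained lower, from -1.06 downwards, and 48 remained at least 3-fold lower. The median went from -2.02 to -1.81. The shifts of the 67 ran from -0.19 to 0.64, with a median of 0.25. The genes that no longer met the limit included AT3G07450, AT5G52160, AT4G20420, AT3G52130, EXLA1, RXF26, AT1G05340 and AT1G56060. The part of gene length in the falls was not tested beyond this.

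**Figure D5:**
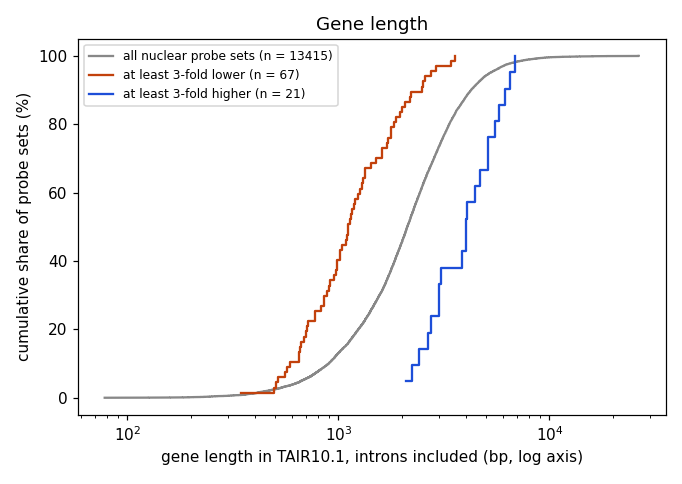
Cumulative share of probe sets (percent) by gene length in TAIR10.1 (bp, log axis) for all nuclear probe sets, the 67 at least 3-fold lower and the 21 at least 3-fold higher. The falling genes lie to the left (median 1111 bp) and the rising ones to the right (4027 bp) of all genes (2118 bp).

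Further annotation features were compared as descriptions. A single RefSeq transcript is recorded for 46 of the 67 (68.7%) and for 54.1% of all nuclear genes with a probe set. Chromosome 1 carries 26 of them (38.8%) against 25.9% of all, and chromosome 4 carries 6 (8.96%) against 14.6%.

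At the edge of the rule, the 3 named genes just inside were AT1G43590 (-1.597), AT2G28400 (-1.592) and AT1G23710 (-1.588). The 3 just outside were AT1G18740 (-1.578), AT1G19530 (-1.572) and AT3G10190 (-1.572). No probe set at least 3-fold lower was left out because its groups overlapped.

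Genes of rapid stress and defence pathways outside the 140 were taken from 27 lists with 172 genes, markers and reference genes included, of which 22 have a named probe set. Only 11 of the 27 lists have a measured gene. The JAZ, MAP kinase and salicylate lists are among those without any. Leaving out AT2G27080 and the separately named ORA47 and STZ, 3 of 19 fell, 4 rose and 12 did not pass in limma, against 11.8% lower and 12.2% higher over all probe sets. Most of these calls were reference or marker genes: PEX4 and AT1G22690 (lower) and PRK, RCA and FMA (higher). The only calls from the pathway lists were AT1G19210 (lower) and AT1G67310 (higher). AT1G19210, an AP2/ERF transcription factor gene, fell by 0.68 (SE 0.10, limma adjusted p = 0.00609), and TINY2 of the same family (-0.41) did not pass. TINY2 passed as lower after quantile normalization (-0.43), with median centring (-0.44) and with an intensity trend in the fit. The zinc finger genes AT2G28200 (-0.06) and AT3G53600 (-0.04), the receptor gene EFR (-0.04) and the immune kinase gene BIK1 (-0.45) did not pass. AT3G53600 read 2.87 to 3.00, below the lower quartile of every array, and EFR read 3.48 to 3.85, near it. A fall in either could hardly be seen. BIK1 passed as lower without wild-type replicate 1 (-0.68) and with the intensity trend.

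AT1G67310, which encodes a calmodulin-binding CAMTA transcription factor, rose by 0.89 (SE 0.11, limma adjusted p = 0.00429). It read 6.59 and 6.52 in the overexpressors and 5.55 and 5.78 in wild type. The clock gene GI (-0.26) did not pass, but with the length trend removed it had -0.78 and passed as lower (limma adjusted p = 0.0105). Of the reference genes PEX4 fell by 0.55, with the call lost without overexpressor replicate 2, wild-type replicate 1 or wild-type replicate 2 (-0.47 to -0.62 with any 1 array left out), and GAPC2 (0.08), AT4G34270 (-0.28) and AT2G28390 (0.28) did not pass. Among markers of other tissues, the guard cell genes split, FMA rising by 0.67 and AT1G22690 falling by 0.57, the latter not past the threshold without wild-type replicate 1 or with the length trend removed. PYK10 (0.24) and EXPA7 (-0.09) of roots and CLV3 (-0.06) of the meristem did not pass. CLV3 read below the lower quartile of every array and EXPA7 near it. PYK10 read 7.99 to 8.36, above the upper quartile of every array.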

How the data were processed

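Biotin-labelled RNA from shoots was hybridized to 4 Affymetrix arrays, 2 per group. The authors deposited 1 linear signal intensity per probe set and array; RMA is named per the submitters' processing notes, and no source used here gives its version or the step back to a linear scale. Deposited intensities were put on the log2 scale and not normalized further. There are 22810 probe sets, 64 of them controls; the number of arrays limits the precision.

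The platform annotation gives 1 gene for 13513 probe sets, several for 503 and none for 8730. Symbols, lengths and gene order are those of RefSeq's TAIR10.1 annotation, in which 13484 of these were found. No sequences were used.

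The test was limma 3.58.1 (R 4.3.3), two-sided, with lmFit and eBayes on a model of group alone and Benjamini-Hochberg adjustment across 22746 probe sets at 0.05; it was also tested on simulated data. Genes and lists were chosen with earlier results of these data known; the TIR, VQ, anther and flower lists, symbol families and gene runs were chosen once the falls were known. The text names the 15 deepest falls, up to 4 per role group, the edge of the rule, the widest replicate gaps and up to 4 genes per list, besides genes chosen after their values were seen. The length trend was removed by lowess (span 0.5) in 4 bins of mean signal.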

Additional observations from a re-analysis of the deposited data

How the results depend on the processing

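The count of 140 was 139 after quantile normalization, 146 with median centring, 140 without the lowest quartile of mean signal and 140 without asking that the groups be apart; with 1 array left out it was 135 to 145, of which 131 to 136 were among the 140. It moved to 399 at 2-fold, 77 at 4-fold, 67 with 1 probe set per named gene and 48 with the length trend removed, where only 67 could be tested; fewer probe sets or another limit account for these by construction, except for part of the last, where the cause was not tested. Of 670 values for the 67 named genes under these settings all stayed below -1. Of these, 613 lay within the replicate SD of the reported value, but most could not do otherwise. Leaving out 1 array of a pair cannot shift a difference beyond that SD. The replicate block, the intensity trend and the lowest-quartile filter return the same difference. The 613 is therefore no measure of robustness. The limma count of 5460 was 3318 to 3586 with 1 array left out (the spread then comes from the other group alone, moderated across probe sets), 2240 at a threshold of 0.01 and 2064 of 13415 after removal of the length trend. With the replicate block it was 3612, though equal replicate numbers mark no pairs here (their deviations correlate at -0.0410). Calls among the 19 listed genes numbered 7; they were 5 to 6 on 3 arrays and 11 with an intensity trend and robust hyperparameters, which added TINY2, BIK1, AT2G28390 and AT4G34270, where the cause was not tested. Among the genes outside the 140, every change of sign was in a gene that did not pass, for a cause that was not tested. On 3 arrays, log2 differences ran from -0.223 to 0.151 for EFR, -0.0910 to 0.00832 for AT3G53600, -0.262 to 0.0867 for EXPA7, -0.181 to 0.0519 for AT2G28200 and -0.136 to 0.00858 for CLV3, and after removal of the length trend GAPC2 was -0.00121, AT2G28390 -0.0162 and AT2G28200 0.213. The median length was 1224 bp at 2-fold. The promoter motif search was not run, since no sequences were used. Without detection calls, signal over background is unknown.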
